A study of Rattus norvegicus with 3 samples.

Results

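Heat shock chaperones are proteins that help other proteins fold, hold them while they are unfolded and carry damaged ones to refolding or breakdown, and the RNA of some of them rises when cells are stressed. The group described here was given as a list of names. It held 9 genes, Hspa1a, Hspa1b, Hspa5, Hspa8, Hsp90aa1, Hsp90ab1, Hsph1, Dnajb1 and Hspb1, of which 8 were found among the 20896 gene names of the deposited tables. Hspb1, Hspa5, Hspa8, Hsp90aa1, Hsp90ab1, Hsph1 and Dnajb1 were found by symbol, and Hspa1b stood under the name LOC108348108, which carries its gene number. Hspa1a was not analysed here. Hspa1a and Hspa1b code for nearly the same protein, and how reads of the pair were assigned is not given, so the values of Hspa1b may hold RNA of both.

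Single-cell RNA was measured in 3 libraries of condylar cartilage and subchondral bone from the temporomandibular joint of SD rats, without replicates. Each library pooled 16 condyles of 8 rats, and single rats cannot be separated within it. All rats carried AAV, a viral vector injected into the joint. Sham rats received Vector AAV and no bite device, UAC rats received Vector AAV with unilateral anterior crossbite, a dental device that alters the load on the joint, and UAC + miR-330 rats received the device with miR-330 AAV. The crossbite and the vectors were kept for 8 weeks. The labels call the rats wild type, and age, AAV serotype and promoter are not given in the sources used here.

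Sequencing depth is given in UMIs, the molecular tags that count captured RNA molecules. The sham library held 77668015 UMIs in 15 clusters, the UAC library 92629658 UMIs in 18 clusters and the UAC + miR-330 library 97255383 UMIs in 19 clusters. Levels are UMIs of a gene per 1000000 UMIs (CPM), with exact Poisson 95% intervals. In the deposited values every cluster of a library sums to the same total, 4541.0 in sham, 5200.0 in UAC and 6123.5 in UAC + miR-330. Unscaled deposited values therefore differ from CPM by 1 factor per library, which moves every gene alike. Because UMIs come from the 3′ end of each RNA, levels were not divided by gene length, and genes are compared with themselves across clusters and libraries rather than with each other. A gene was counted as higher or lower between 2 libraries if its CPM differed at least 1.5-fold, the 95% intervals did not overlap and both libraries together held at least 100 UMIs. With 1 library per group no test was possible, intervals cover counting error only, and differences between rats, dissociations or libraries were not measured.

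Marker genes were checked against the labelled tissue before the chaperones were read. In each library 1 cluster carried the most chondrocyte markers, 13 of 15 in sham, 13 of 15 in UAC and 14 of 15 in UAC + miR-330. The same cluster was enriched for 10 of 10 osteogenic markers in every library and for fibroblast markers, so it is called chondrocyte-like here. It held 11.6% of UMIs in sham, 6.46% in UAC and 6.05% in UAC + miR-330. Clusters with B lineage markers held 57.4%, 47.9% and 52.5% of UMIs in the same order, the largest class of each library. B lineage here means at least 7 of 14 B lineage markers at 50 CPM or more, with no other class ahead by more than 1 enriched marker, and it takes in cycling clusters where B lineage markers were present but not enriched over other clusters. By this rule the cluster with Cxcr5 and Lax1 among its leading genes is B lineage in UAC + miR-330, where it is cluster 8, and not named in UAC, where it is cluster 14. Dendritic markers were ahead in both, with 4 enriched against 3 of B lineage in UAC + miR-330 and 5 against 3 in UAC. The other classes used below are 1 cluster per library enriched for 12 of 13 macrophage and monocyte markers, and the clusters named as neutrophils, 2 in sham and 3 in each UAC library. Clusters led by Defa11 and Defa5, 1 in UAC and 1 in UAC + miR-330, were also enriched for 5 of 11 neutrophil markers but carried early granulocyte markers too and were not named. That of UAC + miR-330 was also enriched for 6 mast cell and basophil markers.

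As background, chaperones of the HSP70 family bind exposed stretches of unfolded proteins, J-domain partners bring clients to them, and HSP110 proteins exchange their nucleotide so that clients are released. HSP90 chaperones act later and finish the folding of kinases and receptors, and small heat shock proteins hold clients without using ATP. The inducible members are switched on by heat shock factor at heat shock elements, whereas the chaperone of the endoplasmic reticulum answers to unfolded protein in that compartment. Cartilage and bone cells secrete large amounts of collagen and are mechanically loaded. Inducible HSP70 and immediate early genes such as Fos and Jun are also known to rise while tissue is being dissociated, which bears on their use as a measure of stress in the joint.

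The inducible HSP70 gene Hspa1b had its highest level in the chondrocyte-like cluster of every library, followed at a distance by myeloid or unnamed clusters. The chondrocyte-like cluster stood at 202 CPM in sham (95% interval 193 to 212), 509 in UAC (491 to 528) and 200.0 in UAC + miR-330 (189 to 212), and in each library its interval was apart from the next cluster. The next clusters were sham cluster 14, with immunoglobulin and haemoglobin genes among its leading genes, at 65.8 CPM, UAC cluster 14, with Cxcr5 and Lax1 among its leading genes, at 124 CPM, and the macrophage-marker cluster of UAC + miR-330 at 106 CPM. Hspa1b reached its lowest level in neutrophil clusters, at 1.31 CPM in sham, 2.26 in UAC and 0.460 in UAC + miR-330. The median cluster was at 3.50 CPM in sham, 21.0 in UAC and 3.55 in UAC + miR-330, over sets of 15, 18 and 19 clusters that differ between libraries. Not every cluster of UAC stood higher, and its B lineage cluster 3 at 3.73 CPM (2.42 to 5.51) overlapped with cluster 5 of sham at 1.82 CPM (0.872 to 3.34). Lower in the order the clusters ran together, with overlapping intervals in 11 of 14 neighbouring pairs in sham, 13 of 17 in UAC and 15 of 18 in UAC + miR-330.

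Hspb1, the small heat shock protein also called HSP27, was the member most concentrated in 1 cluster. The chondrocyte-like cluster held 93.1% of its UMIs in sham, 93.4% in UAC and 92.5% in UAC + miR-330, at 331, 395 and 246 CPM. Outside that cluster the median was 2.39 CPM in sham, 1.93 in UAC and 0.701 in UAC + miR-330, and the highest cluster was sham cluster 14 at 41.3 CPM. RNA set free from broken cells can spread such a gene into other droplets. Hspb1 in the B lineage clusters came to 0.645% of its chondrocyte-like level in sham, 0.445% in UAC and 0.429% in UAC + miR-330. For Hspa1b these shares were 1.96%, 2.81% and 1.58%, and for the collagen gene Col1a1, chosen after values were seen, 0.269%, 0.157% and 0.126%. The part of free RNA in any of them was not tested.

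Hsph1, the HSP110 partner of HSP70, had no such centre. Its highest cluster was at 96.3 CPM in sham, in the cluster with erythroid and cell-cycle markers, at 468 CPM in UAC cluster 6, a small B lineage cluster, and at 234 CPM in cluster 3 of UAC + miR-330, also of B lineage. UAC cluster 6 was apart from the next, cluster 14 at 288 CPM, whereas the highest clusters of sham and UAC + miR-330 overlapped with their neighbours. The lowest clusters were neutrophil clusters at 6.89, 9.01 and 2.87 CPM. Dnajb1, the J-domain protein also called HSP40, varied least among the inducible members, 2.94-fold between its lowest and highest cluster in sham, 5.76-fold in UAC and 4.97-fold in UAC + miR-330. Its highest levels were at 69.8 CPM in B lineage cluster 1 of sham, at 119.6 CPM in UAC cluster 13, which is not named, and at 108 CPM in the cluster with T and NK markers of UAC + miR-330, and each of these overlapped with the next cluster.

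Hspa8, Hsp90ab1 and Hsp90aa1 shared their highest cluster, which carries erythroid and cell-cycle markers together. It also held B lineage markers at 50 CPM or more, 9 in sham, 8 in UAC and 8 in UAC + miR-330. Erythroid markers were ahead by enrichment, and the cluster was not named. Hspa8, the HSP70 form made in unstressed cells, was highest in the cluster with erythroid and cell-cycle markers in each library, at 1934 CPM in sham, 1696 in UAC and 1380 in UAC + miR-330, apart from the next cluster each time. Hsp90ab1, the constitutive HSP90 gene, was highest in the same cluster at 3790, 3735 and 3824 CPM, against 631, 773 and 743 CPM in the chondrocyte-like cluster. Hsp90aa1, its inducible relative, was again highest there, at 501, 551 and 441 CPM. All 3 genes were lowest in neutrophil clusters, Hspa8 at 354 CPM in sham, 351 in UAC and 266 in UAC + miR-330. Within the B lineage the 3 genes did not share a pattern. In sum Hsp90aa1 was at 231 CPM in cycling and 106 in other clusters of sham, 314 and 239 in UAC and 267 and 218 in UAC + miR-330. Single clusters broke this order in the UAC libraries, with cluster 6 of UAC at 335 CPM (308 to 362) beside its cycling cluster at 314 (304 to 324), and cycling cluster 12 of UAC + miR-330 at 212 CPM below clusters 1 and 3, which were not cycling, at 289 and 275 CPM. Hspa8 was at 1151 and 762, 1109 and 805, and 943 and 709 CPM in the same order. Hsp90ab1 was the other way, at 1693 against 1721, 1859 against 2037 and 1868 against 2054 CPM, with overlapping intervals in sham.

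Hspa5, the HSP70 chaperone of the endoplasmic reticulum known as BiP, had a narrower range than Hspa1b. Its level in the chondrocyte-like cluster was 276 CPM in sham, 355 in UAC and 370.2 in UAC + miR-330, close to the median cluster of each library at 271, 333 and 369 CPM. It was highest at 366 CPM in B lineage cluster 1 of sham, which overlapped with the macrophage-marker cluster at 359.5 CPM. In UAC it was highest in cluster 13, with mast cell genes among its leading genes, at 499 CPM, and in UAC + miR-330 in cluster 5, with immunoglobulin and haemoglobin genes among its leading genes, at 654 CPM, each apart from the next cluster. Neutrophil clusters were lowest at 139, 90.5 and 93.8 CPM.

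**Figure D1:**
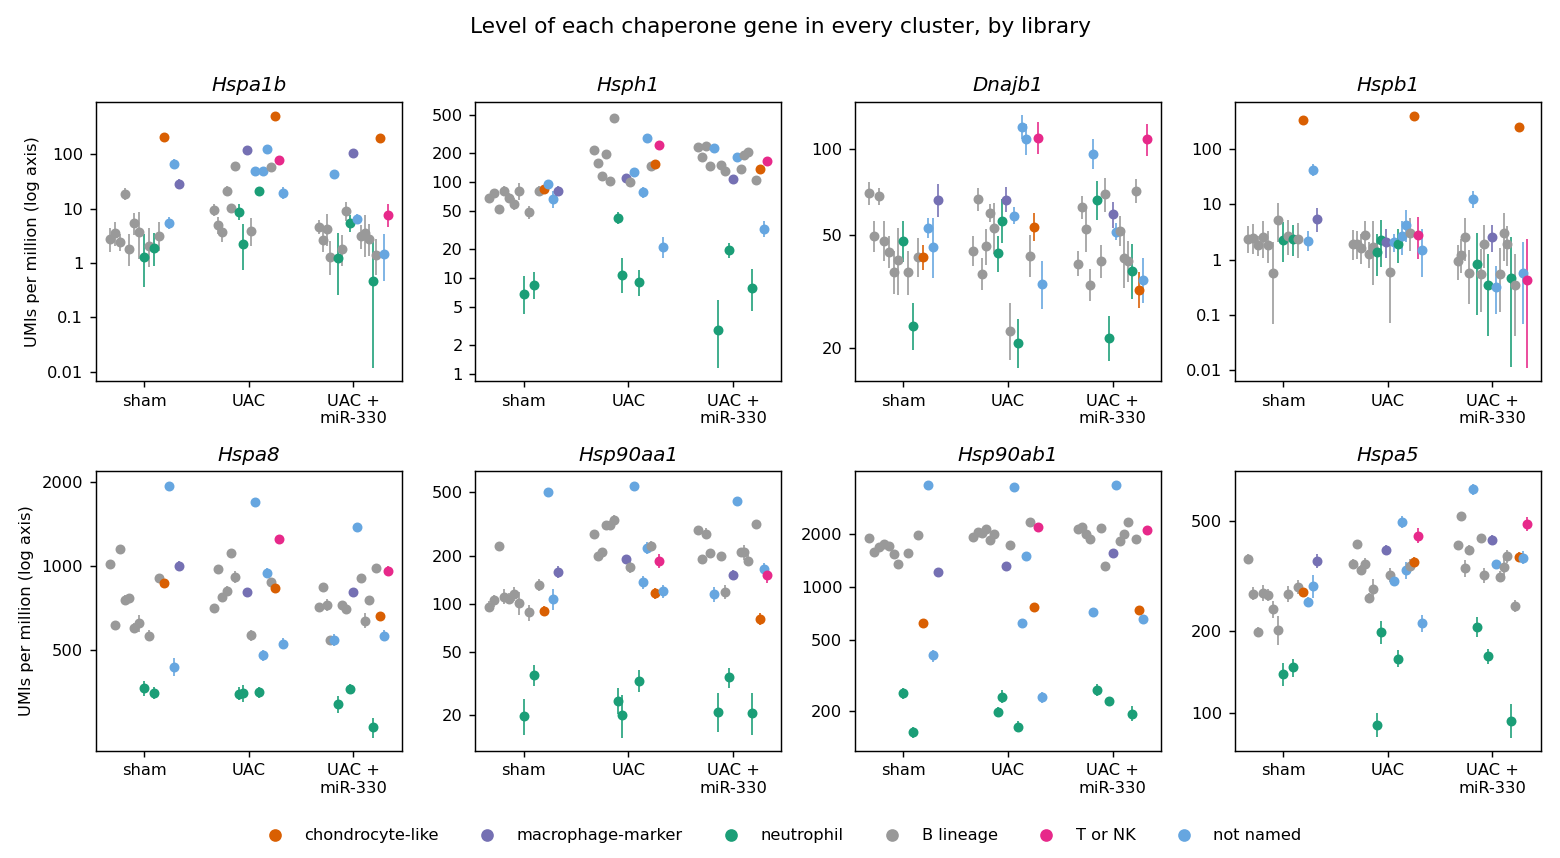
Level of each of the 8 chaperone genes in every cluster, as CPM on a log axis, with 1 column of points per library. Points are clusters coloured by class and bars are exact Poisson 95% intervals. Hspa1b and Hspb1 are highest in the chondrocyte-like cluster of each library (509 and 395 CPM in UAC), whereas Hspa8, Hsp90aa1 and Hsp90ab1 are highest in the cluster with erythroid and cell-cycle markers, drawn as not named.

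The first comparison, UAC against sham, asks what differs with the crossbite. Summed over all clusters, Hspa1b stood at 29.2 CPM in sham and 63.4 in UAC, a log2 ratio of 1.12 (95% interval 1.05 to 1.19), and Hsph1 at 66.6 and 129 CPM, a log2 ratio of 0.96 (0.91 to 1.01). Hspb1 fell from 41.2 to 27.3 CPM, a log2 ratio of -0.59 (-0.67 to -0.52), which was -0.40 and not counted in the unscaled deposited values. These were 2 of 8 members higher, beside 5.96% of 13167 genes, and 1 of 8 lower, beside 5.12%. The median log2 ratio of the members was 0.21 against -0.02 over all genes. The remaining members did not pass the rule. Hsp90aa1 went from 177 to 248 CPM, Hspa5 from 255 to 312, Hspa8 from 974 to 916, Hsp90ab1 from 1690 to 1787 and Dnajb1 from 50.5 to 55.2. Direction depended on the scaling or the clusters used for 2 of these. Hspa8 had a log2 ratio of -0.09 by CPM and 0.11 in the unscaled deposited values, which add 0.20 to every gene in this step. Hsp90ab1 had 0.08 with all clusters and -0.05 without B lineage clusters.

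The sums over all clusters mix the level in each cluster with the share that each cluster has of a library. For Hspb1 the level inside the chondrocyte-like cluster was 331 CPM in sham and 395 in UAC, below 1.5-fold, and that cluster held 11.6% of UMIs in sham and 6.46% in UAC. With every cluster weighted equally, the log2 ratio of Hspb1 was -0.18 and it was no longer counted as lower. For Hspa1b the sum moved against the share of the cluster that held most of it. The chondrocyte-like cluster carried 80.3% of Hspa1b UMIs in sham and 51.8% in UAC, and without it the log2 ratio between the libraries was 2.32.

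Within the chondrocyte-like cluster, UAC was higher for Hspa1b, at 509 against 202 CPM, a log2 ratio of 1.33 (1.25 to 1.42), and for Hsph1, at 153 (143 to 163) against 85.3 CPM (79.3 to 91.5), a log2 ratio of 0.84 (0.70 to 0.98). These were 2 of 8 members higher, beside 7.16% of 8617 genes, and 0 of 8 lower, beside 0.847%. Dnajb1 was at 41.7 CPM in sham (37.6 to 46.1) and 53.2 in UAC (47.5 to 59.4), with intervals apart but a ratio of 1.28. Hsp90aa1 went from 90.4 to 116 CPM and Hsp90ab1 from 631 to 773 CPM, also below 1.5-fold. Of the 8 members 7 had a ratio above 1, and their median log2 ratio was 0.35 where that of all genes in the cluster was 0.12. Hspa8 was the exception by CPM at a log2 ratio of -0.06, which became 0.13 in the unscaled values. Set against Hspa8, there were 23.2 Hspa1b UMIs per 100 Hspa8 UMIs in sham, 60.9 in UAC and 30.2 in UAC + miR-330.

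Other RNAs moved in the same cluster and step. Immediate early genes, transcription factors and regulators that cells switch on within minutes of a stimulus, summed to 5677 CPM in sham and 8010 in UAC. Of these 6 of 14 were higher, among them Junb at 527 and 819 CPM, beside 7.16% of 8617 genes in the cluster. Centring on all genes shifts log2 ratios in this cluster by -0.12. That takes Fos, Junb, Atf3 and Dusp1 short of 1.5-fold and leaves Jun and Zfp36 past it. The metallothioneins, which bind zinc and copper, were higher too, Mt1 at 380.3 and 754 CPM and Mt2A at 104 and 223 CPM. Neutrophil markers, all 11 of 11 listed, summed to 1249 CPM in sham and 4385 in UAC, led by S100a9 at 495 and 1891 CPM, with Ltf at 0 in sham. Mitochondrial RNA made up 4.34% of this cluster in sham and 4.39% in UAC. The part of dissociation, of the immediate early genes and of the neutrophil RNA in the levels of Hspa1b and Hsph1 was not tested.

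In the macrophage-marker cluster Hspa1b was also higher in UAC, going from 28.1 CPM in sham (22.7 to 34.3) to 117 in UAC (109 to 127), a log2 ratio of 2.06 (1.75 to 2.39). It was 1 of 7 members with enough UMIs that was higher, beside 2.65% of 7119 genes, and 0 of 7 were lower, beside 5.48%. Hsph1 stood at 80.7 and 109.9 CPM, below 1.5-fold by CPM but counted as higher in the unscaled values. Hspa8 was at 1004 and 809.7 CPM, and Hspb1 had too few UMIs to be counted, 18 in sham and 12 in UAC. Immediate early genes summed to 6849 CPM in sham and 6917 in UAC, with 0 of 14 higher and 3 of 14 lower, Fosb, Jun and Egr1. The clusters compared also differed in cell content, with macrophage and monocyte markers at 2891 CPM in sham and 1618 in UAC, mast cell and basophil markers at 383 and 2.73 CPM, and dendritic markers at 246 and 126 CPM. Their part, and a difference from the chondrocyte-like cluster in the size of the step, was not tested.

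Neutrophils held few chaperone molecules, yet Hspa1b was again higher in UAC, on 143 UMIs against 13 in sham. Its level was 1.67 CPM in sham (0.887 to 2.85) and 12.5 in UAC (10.6 to 14.8), a log2 ratio of 2.91 (2.09 to 3.85). These levels were 0.824% of the chondrocyte-like level in sham and 2.46% in UAC, beside 0.698% and 0.443% for Hspb1. The part of free RNA was not tested. Of the 143 UMIs 99 lay in UAC cluster 12, led by Lcn2 and Ngp, at 20.7 CPM (16.9 to 25.3), against 1.89 CPM (0.866 to 3.59) in the sham cluster with the same leading genes. The other sham cluster at 1.31 CPM (0.357 to 3.36) overlapped with UAC cluster 8 at 2.26 (0.733 to 5.27). Without the clusters led by Lcn2 and Ngp, Hspa1b was at 1.31 and 6.62 CPM on too few UMIs to be counted, and Hsph1 was higher. Hsph1 went from 7.82 CPM (5.98 to 10.0) to 22.3 (19.7 to 25.3). These were 2 of 7 members higher, beside 1.88% of 6291 genes, and 0 of 7 lower, beside 6.26%. The count for Hsph1 rested on UAC cluster 7, led by Mmp8 and Mmp9, which had no counterpart in sham and held Hsph1 at 42.4 CPM. Without it Hsph1 was at 9.59 CPM in UAC and did not pass the rule, whereas Hspa1b was at 14.9 CPM and did. With the unnamed clusters led by Defa11 and Defa5 added, Hspa1b was at 14.1 CPM and Hsph1 at 22.0 CPM in UAC, and Hsp90aa1 was counted as higher as well, at 29.4 and 47.9 CPM. Immediate early genes summed to 3170 CPM in sham and 4357 in UAC, with 6 of 14 higher, and their part was not tested.

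In B lineage clusters Hspa1b, Hsph1 and Hsp90aa1 were higher in UAC than in sham, and at a 2-fold limit Hsp90aa1 was no longer counted. Hspa1b was at 3.97 CPM in sham (3.41 to 4.60) and 14.3 in UAC (13.2 to 15.5), a log2 ratio of 1.85 (1.61 to 2.10). Hsph1 was at 64.5 CPM (62.2 to 66.9) and 155 (152 to 159), a log2 ratio of 1.27 (1.20 to 1.33). Hsp90aa1, the inducible HSP90 gene, was at 142 CPM (139 to 146) and 259 (255 to 264), a log2 ratio of 0.87 (0.82 to 0.91). They made up 3 of 8 members higher, beside 2.05% of 11134 genes, and 0 of 8 were lower, beside 1.69%. Of the constitutive partners Hspa8 was nearly level by CPM, at 874 and 888. Hsp90ab1 was somewhat higher in UAC, at 1713 and 1989 CPM, a log2 ratio of 0.22 (0.20 to 0.23), below 1.5-fold. The log2 ratio of Hspa8, 0.02, was -0.01 when ribosomal, haemoglobin, immunoglobulin and mitochondrial RNA was left out of the total.

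Across the B lineage, the 9 clusters of sham held Hsph1 between 48.7 and 80.5 CPM and the 8 clusters of UAC between 101 and 468 CPM. Clusters of 1 library share its animals and depth and are not replicates. The share of all genes with ranges apart in this way was not computed. Hspa1b was less even, from 1.82 to 18.7 CPM in sham and from 3.73 to 60.1 CPM in UAC. The cluster led by Jhy and Dntt, genes that were chosen after values were seen, held Hspa1b at 3.17 CPM in sham and 56.7 CPM in UAC. Beside 5 B lineage markers in each library, its leading other list was T and NK markers in sham, 5 enriched, and endothelial markers in UAC, 4 enriched. The part of cell content was not tested. Without this cluster the B lineage stood at 4.04 and 10.9 CPM, a log2 ratio of 1.43. Hsp90aa1 was higher in clusters that were not cycling, at 106 CPM in sham and 239 in UAC, and stayed below 1.5-fold in cycling clusters, at 231 and 314 CPM. Immediate early genes summed to 4972 CPM in sham and 5194 in UAC, with 1 of 14 higher, Jun, beside 2.05% of 11134 genes.

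The second comparison, UAC + miR-330 against UAC, asks what differs with miR-330 AAV under crossbite. Over all clusters Hspa1b fell from 63.4 CPM (61.8 to 65.1) to 23.2 (22.2 to 24.1), a log2 ratio of -1.45 (-1.52 to -1.38). Hspb1 fell from 27.3 to 16.1 CPM, a log2 ratio of -0.76 (-0.85 to -0.67), which was -0.53 and not counted in the unscaled values. Hsph1 did not return and stood at 129 CPM in UAC and 146 in UAC + miR-330, a log2 ratio of 0.17 that became -0.08 with every cluster weighted equally. Among the members 0 of 8 were higher, beside 10.1% of 13435 genes, and 2 of 8 were lower, beside 2.87%. The median log2 ratio of all genes was 0.13 in this step, and that of the members was -0.16, or -0.29 after centring on all genes.

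The other members stayed within 1.5-fold in this step. Hsp90aa1 was at 248 and 219.5 CPM, Hspa8 at 916 and 801 CPM and Dnajb1 at 55.2 CPM against an interval of 48.6 to 51.4 CPM, and for these 3 genes the log2 ratios of -0.18, -0.19 and -0.14 turned to 0.06, 0.04 and 0.09 in the unscaled values. Hspa5 was at 312 and 367 CPM. Hsp90ab1 was at 1787 and 1921 CPM, a log2 ratio of 0.10 that became -0.03 when centred on all genes. The order of the 3 libraries by CPM therefore differed by member. Hspa1b, Hsp90aa1 and Dnajb1 were highest in UAC. Hsph1, Hspa5 and Hsp90ab1 were lowest in sham and highest in UAC + miR-330, and Hspb1 and Hspa8 ran from sham down to UAC + miR-330. The order of sham and UAC + miR-330 depends on scaling for 3 members, whose log2 ratio of UAC + miR-330 over sham turned in the unscaled values from -0.34 to 0.09 for Hspa1b, from -0.28 to 0.15 for Hspa8 and from -0.02 to 0.41 for Dnajb1.

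In the chondrocyte-like cluster 3 members were lower with miR-330 AAV by CPM, and 1 of them, Hspa1b, remained lower in the unscaled values. Hspa1b fell from 509 to 200.0 CPM, a log2 ratio of -1.35 (-1.45 to -1.25), and its CPM interval in UAC + miR-330 overlapped with that of sham, while the log2 ratio over sham turned from -0.02 to 0.42 (0.31 to 0.52) in the unscaled values. Dnajb1 fell from 53.2 to 31.9 CPM (27.5 to 36.9), a log2 ratio of -0.74, and Hspb1 from 395 (379.5 to 412) to 246 CPM (234 to 259), a log2 ratio of -0.68 (-0.78 to -0.59). In the unscaled values these were -0.50 for Dnajb1 and -0.45 for Hspb1, short of 1.5-fold. By CPM this made 3 of 8 members lower, beside 5.67% of 8243 genes, and 0 of 8 higher, beside 7.01%. The median log2 ratio of the members was -0.43 and that of all genes in the cluster was 0.02. Hsph1 was at 153 and 136 CPM with overlapping intervals (143 to 163 and 127 to 146), and its log2 ratio of -0.17 became 0.07 in the unscaled values.

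Hsp90aa1 came near the rule at 116 and 80.2 CPM, a ratio of 0.693, and Hspa8 was at 836 and 662 CPM. By CPM Hspa5 was not separable between the libraries at 355 (340.4 to 371) and 370.2 CPM (355 to 386), and neither was Hsp90ab1 at 773 (751 to 796) and 743 CPM (721 to 765). Their log2 ratios were 0.06 (-0.03 to 0.15) for Hspa5 and -0.06 (-0.12 to 0.00) for Hsp90ab1. Unscaled values shift these by 0.24, which puts both intervals above 0. Immediate early genes stood at 8010 and 5566 CPM in sum, with 8 of 14 lower, beside 5.67% of 8243 genes, and 0 of 14 higher, beside 7.01%. Mt1 fell from 754 to 266 CPM, Mt2A from 223 to 121 CPM and the autophagy receptor gene Sqstm1 from 142 to 93.5 CPM. The same shift of 0.24 takes Jund, at a log2 ratio of -0.75, and Sqstm1, at -0.61, short of 1.5-fold. Neutrophil markers in the cluster went from 4385 to 867 CPM in sum, with S100a8 the most abundant at 335 CPM and Ltf at 0 in UAC + miR-330. Their part in the lower chaperone levels was not tested.

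In the macrophage-marker cluster Hspa1b was not separable between the UAC libraries. Its level was 117 CPM in UAC (109 to 127) and 106 in UAC + miR-330 (97.7 to 114), a log2 ratio of -0.15 (-0.31 to 0.01), and both were above the 28.1 CPM of sham. In that cluster 0 of 7 members were higher, beside 11.3% of 7701 genes, and 0 of 7 were lower, beside 2.27%. Hsph1 was level at 109.9 and 107 CPM, Hspa8 at 809.7 and 808 CPM, and Hsp90ab1 stood at 1331 and 1562 CPM. Immediate early genes summed to 6917 and 6061 CPM, with Fosb and Egr1 higher, 2 of 14, and Junb, Ier3, Dusp1, Nr4a1 and Zfp36 lower, 5 of 14. Whether Hspa1b behaved differently here than in the chondrocyte-like cluster was not tested. The macrophage-marker cluster held 11.7% of all Hspa1b UMIs in UAC and 28.1% in UAC + miR-330.

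In neutrophil clusters Hspa1b fell from 12.5 to 3.39 CPM (2.36 to 4.71), a log2 ratio of -1.89 (-2.46 to -1.34), on 35 UMIs in UAC + miR-330. Hsph1 fell from 22.3 to 13.1 CPM. These were 2 of 7 members lower, beside 1.49% of 6566 genes, and 0 of 7 higher, beside 20.1%, in a class where the median log2 ratio of all genes was 0.27. The Hsph1 count again rested on clusters led by Mmp8 and Mmp9, without which Hsph1 went from 9.59 to 14.5 CPM and was not counted. Hspa1b without them was at 14.9 and 4.17 CPM and remained lower. Without the clusters led by Lcn2 and Ngp, Hspa1b had too few UMIs at 6.62 and 0.867 CPM, and Hsph1 was lower. With the unnamed clusters led by Defa11 and Defa5 added, Hspa1b was lower at 14.1 and 2.90 CPM, Hsph1 was not counted at 22.0 and 18.0 CPM, and Hsp90ab1 was counted as higher at 201 and 336 CPM. The added clusters were not alike, since that of UAC + miR-330 also carried 6 mast cell and basophil markers. Hsp90ab1 was at 238 CPM in the added cluster of UAC and 658 in that of UAC + miR-330, and the part of cell content was not tested. In the unscaled values 1 of 7 members, Hspa1b, was lower. Immediate early genes were at 4357 and 4324 CPM in sum, with 3 of 14 higher, Fos, Fosb and Egr1, and their part was not tested.

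B lineage clusters divided the 3 chaperones that had been higher in UAC. Hspa1b fell from 14.3 to 3.15 CPM (2.68 to 3.68), a log2 ratio of -2.19 (-2.44 to -1.93). Its CPM interval overlapped with that of sham, while its log2 ratio over sham was -0.33 (-0.65 to -0.02). In the unscaled values the ratio over sham turned to 0.10 (-0.22 to 0.41). Hsph1 stood at 155 CPM in UAC and 170.2 in UAC + miR-330 (167 to 174), above the 64.5 CPM of sham. Its lowest B lineage cluster in UAC + miR-330 was at 104 CPM and its highest in sham at 80.5 CPM. The share of all genes with ranges apart in this way was not computed. Hsp90aa1 was at 259 and 228 CPM, against 142 in sham, and its log2 ratio of -0.18 between the UAC libraries became 0.05 in the unscaled values. Hspb1 was lower as well, but on 78 and 54 UMIs, and did not pass the rule without the clusters led by Jhy and Dntt or in the unscaled values. It stayed at 0.445% and 0.429% of its chondrocyte-like level, with a ratio of 0.601 beside 0.623 in that cluster, and the part of free RNA was not tested. These were 2 of 8 members lower, beside 3.44% of 11301 genes, and 0 of 8 higher, beside 8.94%. There were 8.30 Hsp90aa1 UMIs per 100 Hsp90ab1 UMIs in sham, 13.0 in UAC and 11.4 in UAC + miR-330.

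**Figure D2:**
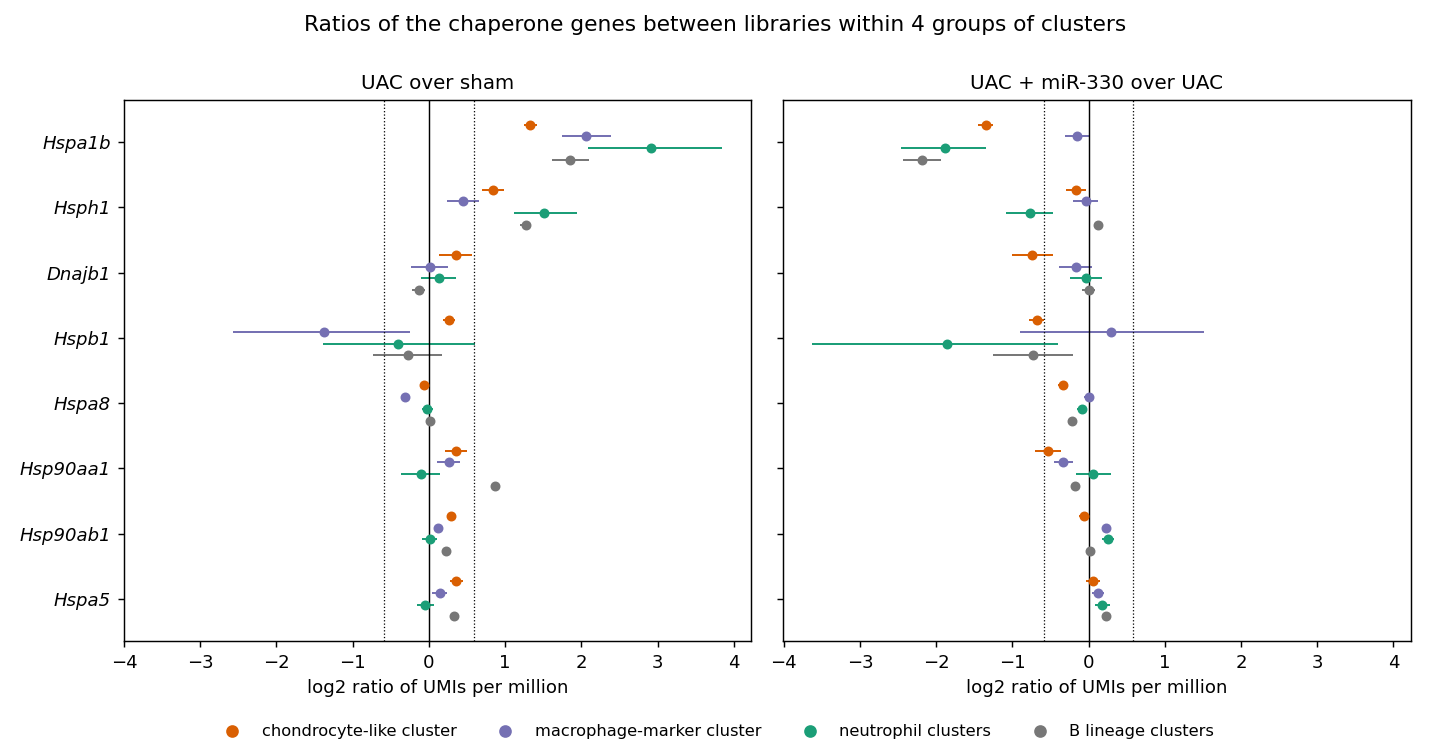
Log2 ratio of CPM of each chaperone gene in the chondrocyte-like cluster, the macrophage-marker cluster, the neutrophil clusters and the B lineage clusters, for UAC over sham and for UAC + miR-330 over UAC. Bars are 95% counting intervals and dotted lines mark a 1.5-fold difference. Hspa1b is above 0 in all 4 classes for UAC over sham, from 1.33 in the chondrocyte-like cluster to 2.91 in neutrophils, and in the next step is clearly below 0 in all but the macrophage-marker cluster (-0.15).

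Hspa1b was also highest in UAC in 2 further clusters, for which levels alone are given. In the cluster with erythroid and cell-cycle markers it was at 5.38 CPM in sham (4.12 to 6.91), 49.0 in UAC (45.4 to 52.8) and 6.53 in UAC + miR-330 (5.31 to 7.94). In the cluster with T and NK markers, which sham lacked, it was at 76.7 CPM in UAC (65.5 to 89.2) and 7.76 in UAC + miR-330 (4.60 to 12.3). The clusters with T and NK markers differed in cell content, with mast cell and basophil markers at 8.67 CPM in UAC and 1721 in UAC + miR-330. The part of this was not tested. Hsp90ab1 in the erythroid and cell-cycle cluster was within 1.5-fold in all 3 libraries, and Hsph1 there stood at 96.3 CPM in sham, 127 in UAC and 180.0 in UAC + miR-330, below 1.5-fold in either step.

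The members did not vary as 1 group across cell clusters. Over the 52 clusters of the 3 libraries, which share library, depth and animals, the Spearman correlation of CPM had a median of 0.32 over the 28 pairs of members, with 9 pairs above 0.5 and 3 below 0. The HSP90 pair Hsp90aa1 and Hsp90ab1 was highest at 0.78, and Hspa8 had 0.71 with Hsp90ab1 and 0.70 with Hsp90aa1. Hsph1 had 0.70 with Hsp90aa1, with Hsp90ab1 and with Hspa5, and 0.53 with Hspa8. Hspa1b had 0.28 with Hspa8 and -0.01 with Hsp90ab1, and over the pooled clusters was nearest to Hspb1 at 0.53. The pooled values mix clusters with libraries, and within a library 20 of 28 pairs differed from them by at least 0.1 in sham, 15 in UAC and 12 in UAC + miR-330. Within sham Hspa1b was nearest to Hsph1 at 0.69, with 0.59 for Hspb1. Over the pooled clusters the lowest pair was Hsp90aa1 and Hspb1 at -0.18, whereas within sham it was Hsp90ab1 and Hspb1 at -0.34. Over the pooled clusters summed immediate early genes had 0.29 with Hspa1b, 0.45 with Hsph1, 0.45 with Dnajb1, 0.38 with Hspa5 and 0.37 with Hspb1. They had 0.17 with Hspa8, 0.13 with Hsp90ab1 and -0.00 with Hsp90aa1. For the members named first, in the same order, the values were 0.54, 0.66, 0.57, 0.48 and 0.67 within UAC. Within sham they were 0.35, 0.37, 0.15, 0.46 and 0.46, and within UAC + miR-330 0.25, 0.26, 0.41, 0.23 and 0.47. Over the pooled clusters the mitochondrial share had its lowest value with Hspa1b, 0.10, and its highest with Hsp90aa1, 0.33. Within sham, UAC and UAC + miR-330 these were 0.31, 0.23 and 0.14 for Hspa1b and 0.35, 0.56 and 0.48 for Hsp90aa1. Pearson correlations of log2 values over the pooled clusters were 0.15 for Hspa1b, 0.71 for Hsp90aa1 and 0.74 for Hsp90ab1.

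Genes with the most similar pattern over the same 52 clusters, among 7357 genes with at least 1000 UMIs in each library, differed by member. For Hspa1b they were S100a4 at 0.70, Lmna at 0.68, Lrp1 and Gsto1 at 0.66 and Tex264 at 0.63. For Hspa8 they were Mrps26 at 0.93, Nolc1 at 0.88, and Impdh2, Rabggtb and AABR07048992.1 at 0.87. For Hspa5 they were Atf6, a sensor of unfolded protein in the endoplasmic reticulum, at 0.80, Man1a1 at 0.79, Snd1 at 0.78, Sec24d at 0.76 and the chaperone Calr at 0.75. For Hspb1 they were Sparc at 0.72, Bglap at 0.71, Ppic at 0.70, and Pltp and Col1a1 at 0.69, of which Sparc, Bglap and Col1a1 are known products of bone-forming cells.

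Between sham and UAC, other chaperone genes were counted within classes but not over all clusters. Over all clusters, where 5.96% of all genes were higher and 5.12% lower, 0 genes were counted in either direction among the other cytosolic HSP70 and HSP110 genes, the other J-domain proteins, the other small heat shock proteins, the co-chaperones, the chaperonins, the mitochondrial chaperones and the genes of the endoplasmic reticulum and unfolded protein response. The 3 most abundant other HSP70 and HSP110 genes were Hspa4 at 188 CPM in sham and 222 in UAC, Hspa14 at 56.5 and 47.0 and Hspa2 at 42.3 and 36.0 CPM. The 3 most abundant other J-domain genes were Dnajb14 at 1089 and 941, Dnaja1 at 395 and 439 and Dnajb6 at 198 and 231 CPM, and those of the chaperonins Cct4 at 288 and 278, Cct5 at 263 and 244 and Cct2 at 212 and 193 CPM. List medians of log2 ratios lay between -0.16 for other small heat shock proteins and 0.31 for immediate early genes, with -0.02 over all genes. The heat shock factors, which switch on inducible chaperones, were not counted either, with Hsf1 at 29.2 and 26.9 CPM and Hsf2 at 29.3 and 33.0 CPM. Oxidative and metal stress genes were 0 of 9 in both directions, with Srxn1 not analysed here.

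Within classes the genes counted between sham and UAC, named because they were counted and so after values were seen, differed by class. In neutrophils, where 6.26% of all genes were lower, Hspa4l and Hspa14 were lower, 2 of 4 other HSP70 and HSP110 genes, and so were Sdf2l1, Pdia6 and P4hb among 21 of the endoplasmic reticulum, Dnajb14 among 11 J-domain proteins and Tcp1 among 9 chaperonins. In the macrophage-marker cluster, where 2.65% were higher and 5.48% lower, Xbp1 was higher and Sdf2l1, Creld2 and Eif2ak3 were lower among 25 of the endoplasmic reticulum, Bag3 was higher among 16 co-chaperones, and Hmox1, the haem-degrading enzyme, was lower among 8 oxidative and metal stress genes, from 262 to 60.5 CPM. In the chondrocyte-like cluster, where 7.16% were higher and 0.847% lower, Fkbp5 was higher among 17 co-chaperones and Atf6 among 25 of the endoplasmic reticulum, and Hspb2 was lower among 4 small heat shock proteins. In B lineage clusters, where 2.05% were higher, the mitochondrial chaperonin Hspd1 was higher among 10 chaperonins.

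Between UAC and UAC + miR-330 the counts over all clusters are read beside 10.1% of all genes higher and 2.87% lower. Higher were Hspa4l among 5 other HSP70 and HSP110 genes, from 3.61 to 5.44 CPM, the HSP70 regulator Bag4 among 18 co-chaperones, from 8.88 to 14.6 CPM, and the mitochondrial HSP70 Hspa9 among 7 mitochondrial chaperones, from 47.5 to 71.5 CPM. In the list of 25 genes of the endoplasmic reticulum, Xbp1, a transcription factor of the unfolded protein response, went from 20.9 to 33.2 CPM and Sel1l, a part of the breakdown machinery, from 29.8 to 46.1 CPM, whereas the stress transcription factor Atf4 fell from 452 to 300.4 CPM. Hspa5 itself stayed below 1.5-fold. Mt1 fell from 173 to 109 CPM and Mt2A from 20.5 to 12.8 CPM, 2 of 9 oxidative and metal stress genes. Of 15 immediate early genes 3 were lower, Ier3 from 82.5 to 49.7 CPM, Dusp1 from 225 to 142 CPM and Zfp36 from 205 to 134 CPM. Other J-domain proteins, other small heat shock proteins, chaperonins and heat shock factors had 0 counted over all clusters. These counts depend on scaling. Unscaled values shift log2 ratios by 0.24, which takes every lower gene named here short of 1.5-fold. Centring shifts them by -0.13, which takes Hspa4l, Hspa9, Xbp1 and Sel1l short of it and Bag4, at a log2 ratio of 0.71, close to it.

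Genes of these lists were also counted within classes between UAC and UAC + miR-330, and are again named after values were seen. In the chondrocyte-like cluster, where 7.01% of all genes were higher and 5.67% lower, Hspa2 was lower among 5 other HSP70 and HSP110 genes and Dnajb14 among 12 J-domain proteins, and Hspa9 was higher among 7 mitochondrial chaperones and Xbp1 and Edem1 among 25 genes of the endoplasmic reticulum. In the macrophage-marker cluster, where 11.3% were higher, Hspa14 was higher among 3 other HSP70 and HSP110 genes, Dnajc2 among 11 J-domain proteins, Hspa9 among 7 mitochondrial chaperones, and Eif2ak3 and Sel1l among 25 of the endoplasmic reticulum. In neutrophils, where 20.1% were higher and 1.49% lower, Hspa4l was higher among 4 other HSP70 and HSP110 genes, Bag4 among 15 co-chaperones, and Xbp1 and Sel1l among 21 of the endoplasmic reticulum, and Prdx1 was lower among 7 oxidative and metal stress genes. In B lineage clusters, where 8.94% were higher and 3.44% lower, Hspb2 and Cryab were lower, 2 of 5 other small heat shock proteins, as were Mt1, Mt2A and Prdx1, 3 of 8 oxidative and metal stress genes. In the same clusters Bag3 and Bag4 were higher among 17 co-chaperones, Xbp1 was higher and Atf4 lower among 25 of the endoplasmic reticulum, and Fos and Fosb were higher and Dusp1 lower among 14 immediate early genes.

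Promoter sequence was available from RefSeq, build GRCr8, for 6 of the 8 members, from 250 bases before to 50 bases after the start. Hspa1b and Hsp90aa1 had no entry in the promoter set used here and were not analysed for motifs. Heat shock elements were searched on both strands as alternating GAA and TTC units spaced by 2 bases, in a form of 3 units and in a form of 2 units that also lies within the longer form. The long form was in 2 of 6 members, Hsph1 and Hspa8, and in 0.798% of 33469 promoters. The short form was in 4 of 6, with Dnajb1 and Hspb1 added, and in 15.9% of promoters. The endoplasmic reticulum stress element, CCAAT and CCACG with 9 bases between, was in Hspa5 and in 0.0657% of promoters. The promoters below belong to Hsph1 and Hspb1, which were counted as different between libraries, and to Hspa8 and Hspa5, which were not, so that motif and behaviour can be set side by side. Capitals mark the long heat shock element in Hsph1 and Hspa8, the short form in Hspb1 and the endoplasmic reticulum stress element in Hspa5. They stand at chr12:10427118-10427417 on the plus strand for Hsph1, chr8:50080264-50080563 on the plus strand for Hspa8, chr12:26432252-26432551 on the minus strand for Hspb1 and chr3:38452766-38453065 on the plus strand for Hspa5.
Hsph1: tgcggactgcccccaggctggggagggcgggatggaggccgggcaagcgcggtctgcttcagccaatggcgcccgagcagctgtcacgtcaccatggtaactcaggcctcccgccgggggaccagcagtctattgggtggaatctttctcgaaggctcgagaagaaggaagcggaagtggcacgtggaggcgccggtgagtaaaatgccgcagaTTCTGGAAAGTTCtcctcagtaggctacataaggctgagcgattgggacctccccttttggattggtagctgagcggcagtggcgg
Hspa8: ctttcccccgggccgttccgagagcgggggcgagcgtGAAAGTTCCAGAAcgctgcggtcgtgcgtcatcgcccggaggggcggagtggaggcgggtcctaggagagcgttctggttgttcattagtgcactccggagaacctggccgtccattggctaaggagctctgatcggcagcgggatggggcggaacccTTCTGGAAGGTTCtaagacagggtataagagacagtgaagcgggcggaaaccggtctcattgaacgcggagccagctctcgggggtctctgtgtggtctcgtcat
Hspb1: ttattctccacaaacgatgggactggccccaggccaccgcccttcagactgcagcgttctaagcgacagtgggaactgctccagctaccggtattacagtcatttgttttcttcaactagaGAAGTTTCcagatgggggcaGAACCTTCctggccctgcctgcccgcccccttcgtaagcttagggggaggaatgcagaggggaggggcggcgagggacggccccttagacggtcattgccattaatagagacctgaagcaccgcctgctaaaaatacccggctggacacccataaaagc
Hspa5: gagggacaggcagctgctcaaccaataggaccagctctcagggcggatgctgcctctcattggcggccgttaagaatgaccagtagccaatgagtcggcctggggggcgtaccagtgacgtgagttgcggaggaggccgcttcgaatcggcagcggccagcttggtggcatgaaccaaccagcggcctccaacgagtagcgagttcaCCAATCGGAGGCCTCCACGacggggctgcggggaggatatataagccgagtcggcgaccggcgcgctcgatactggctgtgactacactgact

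The long element of Hsph1 began 36 bases before the start, and those of Hspa8 began 213 and 55 bases before it. Hspb1 held short forms that began 129 and 109 bases before the start, and the element of Hspa5 began 43 bases before it. Hspa8 carried the long form in 2 places and stayed within 1.5-fold in both steps over all clusters, while Hsph1 carried it in 1 place and was higher in UAC. A match describes the letters in this window only, and binding of heat shock factor was not measured.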

How the data were processed

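The authors deposited, per library, mean counts for each cluster, which are normalized signal because every cluster has been divided by its own constant. The submitters' processing notes name Cell Ranger 7.0, STAR and Seurat 4.0.1, and builds of human and mouse, while identifiers are rat Ensembl. Deposited log2 fold changes and adjusted p-values compare clusters, not conditions, and were not used. Division by the smallest value above 0 of each cluster gave whole UMIs for 100.0% of values within 0.01. Names on several identifiers (101, 106 and 116) were summed. Ratios have conditional exact 95% intervals, and with 1 library per group no count model was run. Fewer than 3 UMIs were set to 3 when a fold was counted, and 0.5 was added to counts for medians of log2 ratios. A marker was enriched in a cluster at 10 UMIs or more and a log2 enrichment of at least 1. Clusters were named from the list with most enriched markers, at least 3, and from leading genes. B lineage was named from at least 7 markers at 50 CPM or more, with B lineage at most 1 enriched marker behind the best list. Marker counts did not decide every cluster, and some with at least 3 enriched markers of a list were left unnamed. Examples are UAC cluster 13, with 7 mast cell and basophil and 6 macrophage and monocyte markers, and UAC cluster 14, with 5 dendritic and 3 B lineage markers. These rules were settled with the tables already open. Doublets and free RNA were not treated, and cell barcodes were not analysed here. Members and lists were chosen with earlier results of these data known. Genes named are the members, genes from the 3 most abundant of each list and up to 3 with the largest ratio each way among those counted over all clusters, and the 5 most similar genes of 4 members, with Hspa1b in place of Hspa1a. Other genes were chosen after values were seen. Scripts ran in Python 3.11.15 with numpy 2.4.6, scipy 1.17.1, pandas 2.3.3 and matplotlib 3.10.9 and were tested on simulated data.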

Additional observations from a re-analysis of the deposited data

How the results depend on the processing

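Counts below are members higher or lower, with the first step UAC over sham and the second UAC + miR-330 over UAC. At a 2-fold limit the first step had 1 higher and 0 lower over all clusters and 1 higher in the chondrocyte-like cluster, and 2 instead of 3 higher in B lineage clusters, where Hsp90aa1 was no longer counted, and the second had 1 lower over all clusters and 1 lower in each of the chondrocyte-like, neutrophil and B lineage classes. This limit is stricter by construction. Unscaled deposited values shift log2 ratios by 0.20 and 0.24, the same for every gene, because the deposited total per cluster differs between libraries. They gave 0 lower in the first step over all clusters, 2 higher in the macrophage-marker cluster, and in the second step 1 lower over all clusters and 1 lower in each of the chondrocyte-like, neutrophil and B lineage classes. Their reversed log2 ratios were, over all clusters, Hspa8 at 0.11 in the first step and, in the second, Hspa8 at 0.04, Hsp90aa1 at 0.06 and Dnajb1 at 0.09. In the chondrocyte-like cluster they were Hspa8 at 0.13 and, in the second step, Hsph1 at 0.07. Hsp90ab1 there, at -0.06 (-0.12 to 0.00) by CPM in the second step, also turned above 0. In B lineage clusters they were Dnajb1 at 0.06 and, in the second step, Hspa8 at 0.01 and Hsp90aa1 at 0.05. The constant shift accounts for these by construction.

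Centring on the median of all genes gave 0 lower in the first step over all clusters and a member median of -0.29 in the second, and Hsp90ab1 reversed to -0.03 over all clusters and -0.06 in B lineage clusters. Weighting clusters equally gave 0 lower and a median of 0.29 in the first step, and Hsph1 reversed to -0.08 in the second. Without the cluster richest in each member the first median was 0.26, and without B lineage clusters Hsp90ab1 reversed to -0.05. Leaving ribosomal, haemoglobin, immunoglobulin and mitochondrial genes out of the total reversed Hspa8 to -0.01 and Hsp90ab1 to -0.03 in B lineage clusters, and the cause was not tested. Among alternatives chosen after seeing the data, leaving out clusters led by Mmp8 and Mmp9, or by Lcn2 and Ngp, gave 1 higher and then 1 lower in neutrophils, adding the unnamed clusters led by Defa11 and Defa5 gave 1 higher and 1 lower in the second step in neutrophils, and leaving out those led by Jhy and Dntt gave 1 lower in the second step in the B lineage. With or without clusters led by Lax1 and Cxcr5, the 4 B lineage counts were as reported. Counts with mitochondrial genes out of the total, 22 values with the medians, kept their size.

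Genes of the other lists named within classes were counted by CPM only. Scaling also moves the share of higher genes among all genes counted. In the first step it went from 53.8% to 77.7% unscaled over all clusters, from 32.6% to 71.8% in the macrophage-marker cluster, from 23.0% to 60.9% in neutrophils and from 54.8% to 85.7% in the B lineage, and from 89.4% to 73.8% centred in the chondrocyte-like cluster. In the second step it went from 77.9% to 95.9% unscaled and 52.6% centred over all clusters, from 83.3% to 97.1% and 55.7% in the macrophage-marker cluster, from 72.2% to 94.5% and 56.0% in the B lineage, from 55.3% to 87.3% unscaled in the chondrocyte-like cluster and from 93.1% to 55.8% centred in neutrophils. Correlations within a library moved by at least 0.1 for 20 of 28 pairs in sham, 15 in UAC and 12 in UAC + miR-330, and Pearson correlations of log2 values for 12. Depth limited Hspb1 in the macrophage-marker and neutrophil clusters, where fewer than 100 UMIs over both libraries were not counted.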

Other observations

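Some clusters outside the named classes, and 1 near the border of the B lineage, stood out for chaperones. Sham cluster 14, with immunoglobulin and haemoglobin genes among its leading genes, held Hspb1 at 41.3 CPM (31.8 to 52.8) and Hspa1b at 65.8 CPM (53.7 to 79.9), in each case next after the chondrocyte-like cluster of that library. UAC + miR-330 cluster 5, with such genes too, held Hspb1 at 12.3 CPM (8.60 to 17.2), Hspa1b at 43.4 CPM (36.0 to 51.7), Dnajb1 at 96.2 CPM (85.2 to 108) and Hsph1 at 226 CPM (209 to 245). UAC cluster 14, which is not named, and cluster 8 of UAC + miR-330, which is in the B lineage, share the leading genes Cxcr5 and Lax1, and held Hspa1b at 124 CPM (110.4 to 139.6) and 9.05 CPM (6.01 to 13.1), and Hsph1 at 288 CPM (266 to 311) and 130.3 CPM (118 to 144). Dendritic markers were ahead of B lineage markers in both, by 5 to 3 in UAC and 4 to 3 in UAC + miR-330. Siglech was among the leading genes of the UAC cluster only, and the part of cell content was not tested.

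The cluster with T and NK markers, found in UAC and UAC + miR-330 only, held Dnajb1 at 109 and 108 CPM, Hspa8 at 1248 and 962 CPM, Hspa5 at 444 and 490.5 CPM and Hsph1 at 244 and 167 CPM. In the cluster led by Jhy and Dntt, Hspa1b was at 3.17 CPM in sham, 56.7 in UAC and 2.77 in UAC + miR-330, and Hsph1 at 80.5, 148 and 204 CPM. Beside 5 B lineage markers in each library, this cluster carried 5 T and NK markers in sham, 4 endothelial markers in UAC and 6 in UAC + miR-330. The part of cell content was not tested. Together the 8 members made up 0.328% of UMIs in sham, 0.354% in UAC and 0.354% in UAC + miR-330, and 0.664%, 0.652% and 0.623% in the cluster with erythroid and cell-cycle markers.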
